A study of Mus musculus with 8 samples.

Results

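De novo lipogenesis is the making of fatty acids from acetyl-CoA. The 10 genes described here are its core set in liver: the transcription factors Srebf1 (SREBP1) and Mlxipl (ChREBP), the enzymes Acly, Acss2, Acaca, Acacb, Fasn, Me1 and Pklr, and the regulator Thrsp. They were taken by name as the core genes of the pathway, and all 10 were among the 13774 genes of the table for the transgenic mice (TG) and the 11773 genes of the table for the heterozygous mice (het). Liver RNA came from C57BL/6 mice fed a diet with 42% fat for 8 weeks, in 4 groups of 2 libraries. The TG mice are homozygous for a Ube3a transgene and overexpress Ube3a, which encodes a ubiquitin ligase. The het mice carry 1 knockout and 1 wild-type allele of Ube3a. Each mutant has a wild-type (WT) pair of its own, given the same diet, and no group was kept on another diet. The labels name neither the promoter of the transgene nor the age or sex of the mice, and nothing in them says that 2 libraries of a group come from separate animals. All p-values thus measure only the spread between these libraries, which may be technical.

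SREBP1 and ChREBP are the main factors that switch on lipogenic genes in hepatocytes. SREBP1 is made as a membrane-bound precursor that must be cut to reach the nucleus, and insulin raises both its transcription and its cutting. ChREBP answers to sugar metabolites. Their targets supply acetyl-CoA (Acly from citrate, Acss2 from acetate), make malonyl-CoA (Acaca in the cytosol, Acacb at the mitochondrion), build palmitate (Fasn), provide NADPH (Me1) and feed carbon in through glycolysis (Pklr). Both SREBP1 and ChREBP act as proteins, and RNA levels do not measure their activity. A gene's reads here also do not separate its isoforms, such as SREBP-1a and SREBP-1c of Srebf1.

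A library of the TG table held 44193275 to 47928229 reads, and for het and its WT pair the range was 13171145 to 17748088. The values below are normalised reads: each library's reads were divided by a factor of its own. The tables were normalised separately, so each mutant was set only against the WT pair of its own table. Ube3a served as a check of the labels. Its level was 1187 and 1359 in WT beside 5991 and 5938 in TG, and 369 and 409 in WT against 301 and 280 in het, so it lay on the labelled side in every mutant library. Its log2 fold changes were 2.23 (SE 0.13, adjusted p = 0.0586) and −0.42 (SE 0.11, adjusted p = 0.129). Of 12 hepatocyte markers 10 were found in each table under the names searched (not Tf and Ass1), and albumin alone made up 5.79 to 7.94% of each library.

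The lipogenic genes differed widely between libraries of the same mutant. In TG library 1 the enzymes stood well above both WT libraries, while in TG library 2 most stood below them. In the het pair, library 1 was again the higher one for every gene, and library 2 lay near its WT pair for Acly, Acaca and Fasn. Library 1 was above both WT libraries for 9 of the 10 genes in TG, where 38.2% of all genes were, and for 8 in het, where 37.1% were. Library 2 was below both WT libraries for 7 in TG, against 35.2% of all genes, and for 5 in het, against 37.3%. No gene of the 10 passed limma's threshold (Benjamini-Hochberg adjusted p under 0.05 over all genes of a table) in either comparison. In het, Acacb, Me1, Thrsp and Acss2 lay above WT without overlap, 4 of the 10 genes against 24.3% of all genes, and Mlxipl below it, 1 gene against 23.7%. In TG only Mlxipl lay above WT without overlap, against 21.8% of all genes. Mlxipl was thus the 1 gene of the 10 above WT in TG and below it in het, as were 7.23% of the genes in both tables.

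**Figure D1:**
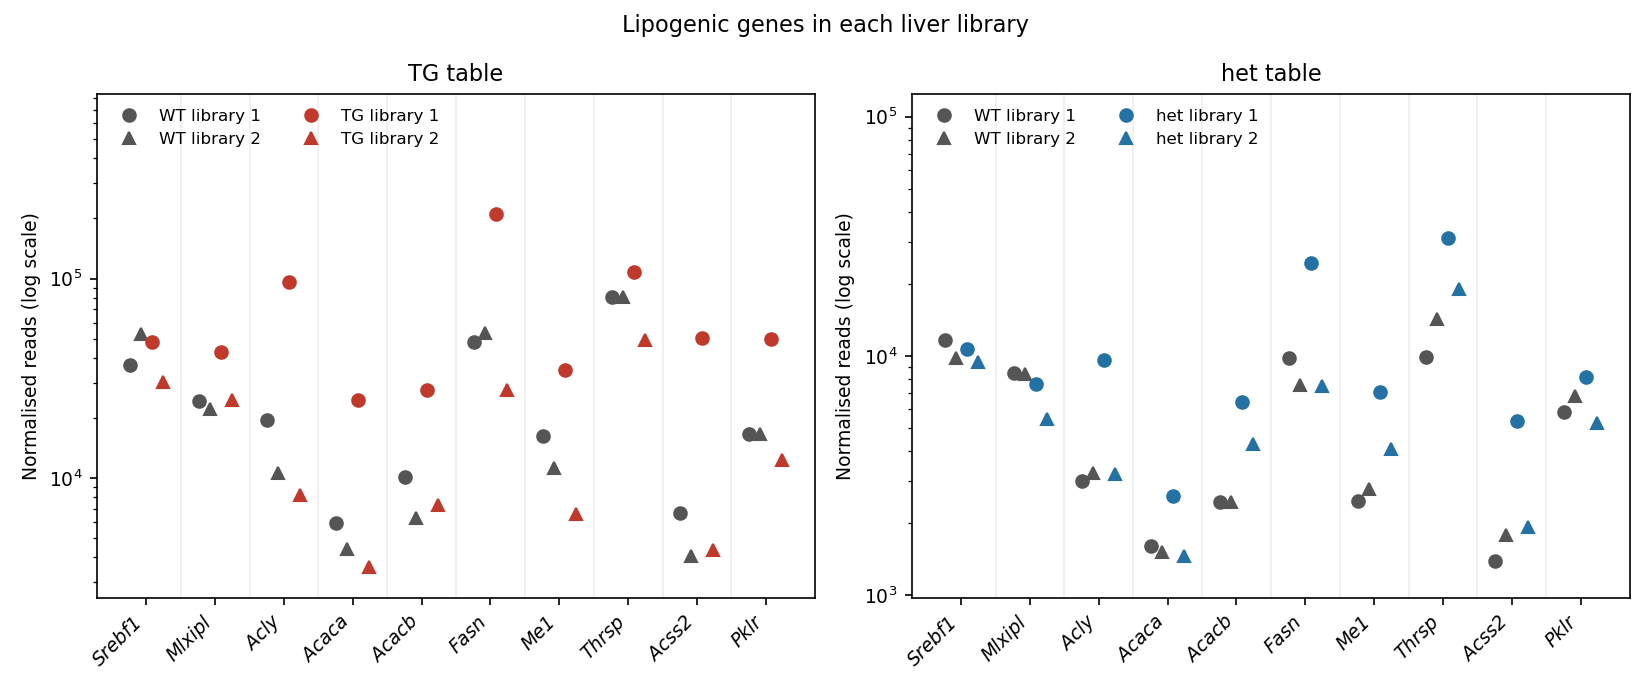
Normalised reads (log scale) of the 10 genes in each library of the TG table (left) and the het table (right), with circles for library 1 and triangles for library 2 of each group, WT in grey and the mutant in colour. TG library 1 lies above both WT libraries for 9 genes and het library 1 for 8, while the second library of each mutant lies among or below the WT libraries for most genes.

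The 2 enzymes that supply acetyl-CoA differed most between the TG libraries. Acly, ATP citrate lyase (chromosome 11, 100476353 to 100528000, − strand, GRCm38), stood at 19429 and 10642 in WT and at 96582 and 8254 in TG. TG library 1 thus had 6.42 times the WT mean and TG library 2 was below both WT libraries, so the groups overlapped. The log2 fold change of 0.97 had an SE of 1.41 and a 95% interval of −3.23 to 5.17 (adjusted p = 0.838). The het table had Acly at 2992 and 3252 in WT and at 9624 and 3200 in het. Only het library 1 was above the WT pair, with 3.08 times its mean, and the log2 fold change was 0.83 (SE 0.70, 95% interval −1.56 to 3.23, adjusted p = 0.677).

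Acss2, the cytosolic and nuclear acetyl-CoA synthetase that uses acetate (chromosome 2, 155517948 to 155585724, + strand), was at 6650 and 4063 in WT and at 50590 and 4340 in TG. The first TG library had 9.44 times the WT mean, the widest such ratio of the 10 genes, and the second lay between the WT libraries. Its log2 fold change was 1.51 (SE 1.39, 95% interval −2.64 to 5.66, adjusted p = 0.753). The het table had it at 1394 and 1793 in WT and at 5376 and 1937 in het. Both het libraries were above both WT libraries, the second by little, and the log2 fold change was 1.03 (SE 0.66, 95% interval −1.25 to 3.31, adjusted p = 0.591).

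The carboxylases are a pair of related enzymes. Acaca, acetyl-CoA carboxylase 1 (chromosome 11, 84129672 to 84401651, + strand), makes the malonyl-CoA used by fatty acid synthase. It was at 5916 and 4428 in WT beside 24548 and 3577 in TG, and at 1605 and 1511 in WT against 2613 and 1467 in het. In both mutants the first library was above and the second below the WT pair. The log2 fold changes were 0.87 in TG (SE 1.08, adjusted p = 0.81) and 0.33 in het (SE 0.32, 95% interval −0.59 to 1.25, adjusted p = 0.702).

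Acacb, acetyl-CoA carboxylase 2 (chromosome 5, 114146535 to 114250761, + strand), makes the malonyl-CoA that restrains fatty acid entry into mitochondria. It was at 2466 and 2465 in WT and at 6414 and 4283 in het, so both het libraries were clear of a WT pair that hardly differed. It had the smallest p of the 10 genes in het, with a 2.17-fold higher mean and 1.09 on the log2 scale (SE 0.19, 95% interval 0.62 to 1.55), and limma's adjusted p of 0.0678 missed the threshold. DESeq2 on the recovered reads gave adjusted p = 3.65e-06, and over all alternatives the adjusted p ran from 3.65e-06 to 0.623, the highest with all 8 libraries in a single fit. In TG, Acacb was at 27562 and 7346 against 10110 and 6319 in WT, and the groups overlapped (log2 fold change 0.83, SE 0.74, adjusted p = 0.742).

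Fasn, fatty acid synthase (chromosome 11, 120805846 to 120824547, − strand), was at 48279 and 53090 in WT and at 211676 and 27493 in TG. In library 1 it was 4.18 times the WT mean and in library 2 it was 0.542 times that mean. For the het mice it was at 24532 and 7461, with 9779 and 7561 in WT, again with only the first library above WT. The log2 fold changes were 0.59 in TG (SE 1.08, 95% interval −2.48 to 3.66, adjusted p = 0.875) and 0.65 in het (SE 0.77, 95% interval −1.99 to 3.29, adjusted p = 0.763).

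Me1, the cytosolic malic enzyme that yields NADPH (chromosome 9, 86581371 to 86695953, − strand), was at 16314 and 11154 in WT and at 34934 and 6608 in TG, with TG library 2 below both WT libraries. Het livers had 7070 and 4095 and their WT pair 2475 and 2780. There both het libraries were above both WT libraries, the mean was 2.12-fold higher, and limma's log2 fold change was 1.04 (SE 0.29, 95% interval 0.23 to 1.84, adjusted p = 0.254). In TG the log2 fold change was 0.17 (SE 0.92, adjusted p = 0.966).

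Pklr, the liver pyruvate kinase and a classic ChREBP target (chromosome 3, 89136142 to 89146784, + strand), was at 16559 and 16706 in WT and at 49500 and 12289 in TG. The WT libraries were nearly equal, and the TG libraries lay on either side of them (log2 fold change 0.57, SE 0.73, adjusted p = 0.813). It was at 5834 and 6832 in the WT pair of het and at 8134 and 5266 in het, again on either side, and the log2 fold change was 0.05 (SE 0.22, 95% interval −0.49 to 0.60, adjusted p = 0.941).

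Thrsp, known as Spot 14 and found in lipogenic tissues (chromosome 7, 97412938 to 97417730, − strand), was at 80649 and 81000 in WT and at 107338 and 48972 in TG. Here too the nearly equal WT libraries had a TG library on each side (log2 fold change −0.16, SE 0.40, adjusted p = 0.911). In het it was at 31237 and 19087 against 9929 and 14236 in WT, so the groups did not overlap. The het mean was 2.08-fold higher and the log2 fold change 1.04 (SE 0.31, 95% interval 0.20 to 1.87, adjusted p = 0.264).

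The transcription factors varied least between libraries of a mutant. Srebf1 (chromosome 11, 60199089 to 60222581, − strand) was at 36654 and 52588 in WT and at 48173 and 30443 in TG, and at 11664 and 9810 in WT against 10714 and 9419 in het. The groups overlapped in both tables, and the log2 fold changes were −0.20 in TG (SE 0.31, 95% interval −0.99 to 0.60, adjusted p = 0.846) and −0.09 in het (SE 0.13, 95% interval −0.39 to 0.21, adjusted p = 0.792). In TG library 1, where Fasn and Acly were several times the WT mean, Srebf1 RNA was 1.08 times its WT mean.

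Mlxipl (chromosome 5, 135089890 to 135138382, + strand) was at 24252 and 22084 in WT and at 42662 and 24737 in TG, both above WT, the second by little. In het it was at 7668 and 5443, both below the 8518 and 8450 of WT. The log2 fold changes were 0.49 in TG (SE 0.30, 95% interval −0.26 to 1.24, adjusted p = 0.635) and −0.39 in het (SE 0.16, 95% interval −0.77 to −0.01, adjusted p = 0.327). In het Mlxipl thus lay below WT in both libraries, while the groups of Acacb, Me1, Thrsp and Acss2 lay above it.

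**Figure D2:**
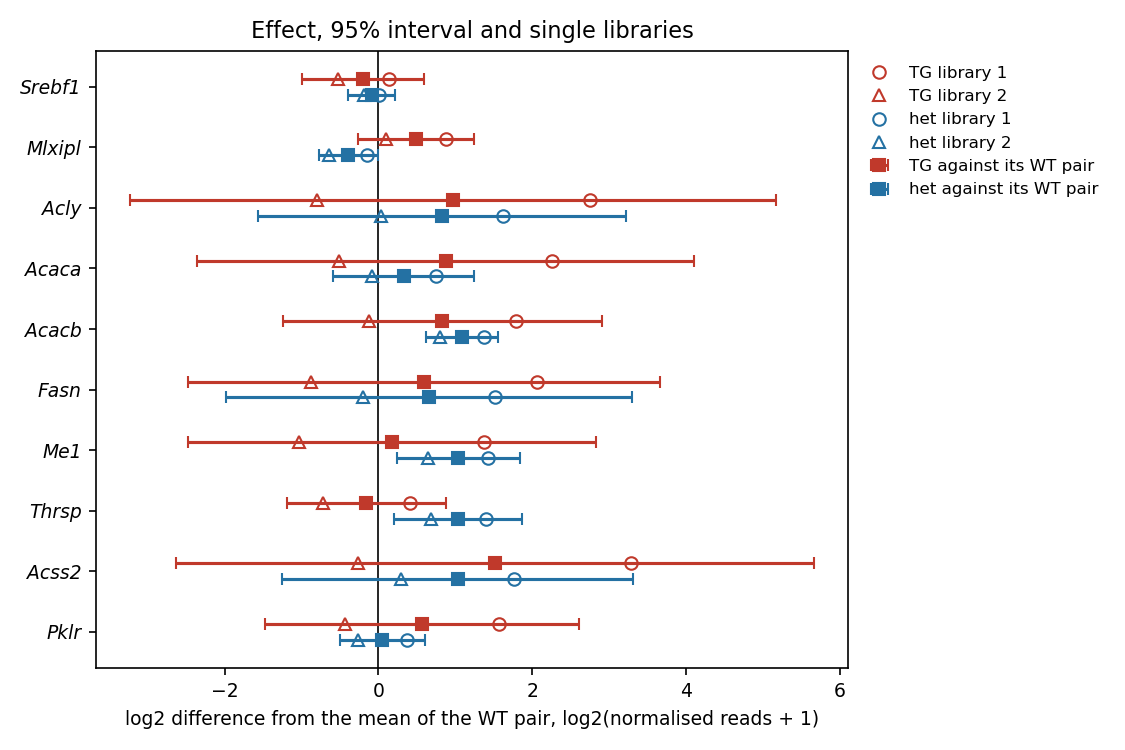
Log2 difference from the mean of the WT pair for the 10 genes: squares give limma's log2 fold change with its 95% interval, open circles and triangles give the first and second mutant library, TG in red and het in blue. The het intervals of Acacb, Me1 and Thrsp lie above 0 and that of Mlxipl just below it, without adjustment for the number of genes, and all TG intervals span 0.

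Counted together, 0 of the 10 genes were called in TG, where limma called 0% of all genes. DESeq2 on recovered reads called 0 of the 10 and 1.35% of all genes, edgeR called 0, and 0 of the 10 were under an unadjusted p of 0.05 in limma, against 9.12%. In het 0 were called by limma, against 1.44% of all genes, and 4 were under an unadjusted p of 0.05 (Acacb, Me1 and Thrsp higher, Mlxipl lower), against 14.7%. There DESeq2 called 1 of the 10, Acacb, and 2.45% of all genes. Both TG libraries were below both WT libraries for 0 of the 10, which held for 21.6% of all genes. In TG the share of the 10 with separated groups was thus below that of all genes. The median log2 fold change of the 10 genes was 0.58 in TG and 0.74 in het, beside 0.00138 and −0.000738 over all genes. With edgeR or DESeq2 on recovered reads, which compare mean reads rather than mean logs, the TG median was 0.99.

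A single library of each mutant set these medians. Without TG replicate 1 the TG median was −0.52, with 9 of the 10 genes below WT, and without TG replicate 2 it was 1.68, with all 10 above. In the latter fit limma called 3 of the 10, Acaca, Fasn and Pklr, all higher, against 1.06% of all genes in either direction, with the lone TG library assumed to vary like the WT pair. Without het replicate 1 the het median was −0.025, with 5 genes above and 5 below WT. Without het replicate 2 it was 1.39, and 5 of the 10 were called, all higher (Acacb, Me1, Acss2, Acly and Fasn), against 0.892% of all genes in either direction.

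The difference between the libraries of a mutant was itself ordered across the genes. TG library 1 was higher than library 2 for all 10 genes, and by more than 2-fold for 8 of them, against 4.12% of all genes. The ratios ran from 1.58 for Srebf1 and 1.72 for Mlxipl to 7.70 for Fasn, 11.7 for Acss2 and 11.7 for Acly. In the het pair library 1 was also higher for all 10 genes, and more than 2-fold for 3, against 0.654% of all genes. These were Fasn (3.29), Acly (3.01) and Acss2 (2.78), and the lowest ratio was again that of Srebf1 (1.14). Against WT, TG library 1 was over 2-fold above the WT mean for 7 genes (3.51% of all genes) and TG library 2 for 0 (1.88%). Het library 1 was so for 6 (1.39% of all genes) and het library 2 for 0 (1.28%).

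**Figure D3:**
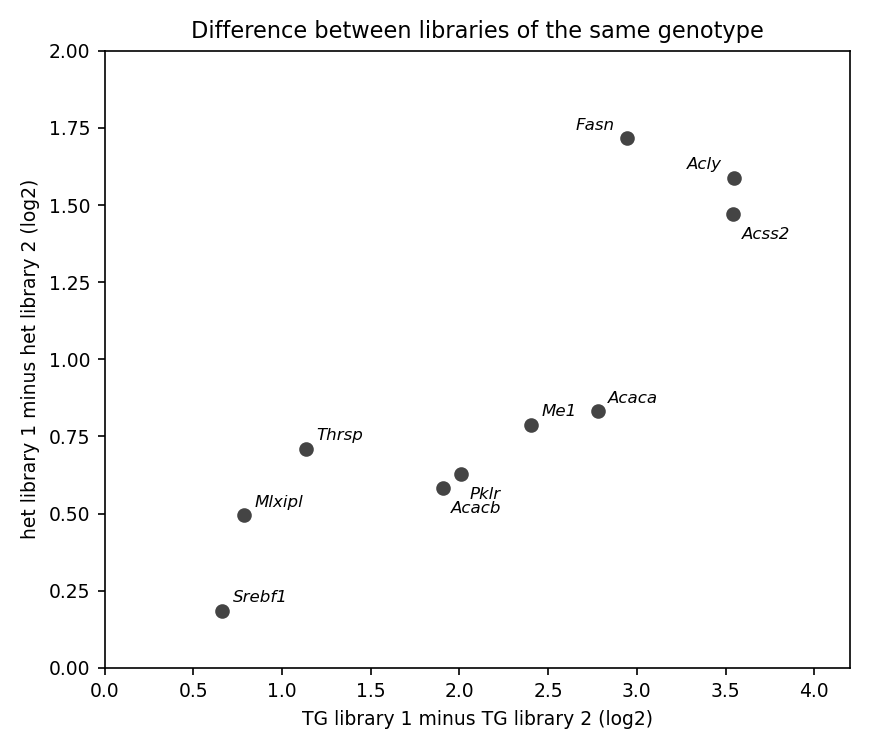
Log2 difference between the libraries of the same genotype for each of the 10 genes, TG library 1 minus 2 across and het library 1 minus 2 upwards. Srebf1 and Mlxipl lie nearest to 0 in both pairs, and Fasn, Acly and Acss2 farthest, with 1.47 to 1.72 in het and 2.94 to 3.55 in TG.

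The order of the genes was much the same in both pairs. Acly, Acss2 and Fasn held the first 3 places, Acaca the fourth and Me1 the fifth, and Mlxipl and Srebf1 the last in TG as in het. As a description, the log2 differences of the 10 genes had Pearson's r = 0.868 and Spearman's rho = 0.927 between the pairs. These are points across genes, which share their libraries and are not independent replicates. The labels tie no library number of TG to the same number of het, so the sign shared by the pairs rests on the numbering. The WT pairs were closer. In that of the TG table, Acly (1.83), Acss2 (1.64), Acacb (1.60), Me1 (1.46) and Acaca (1.34) were higher in library 1 by the ratios given, and Srebf1 was 1.43-fold higher in library 2. In the het table's WT pair the widest ratios were 1.43 for Thrsp, higher in library 2, and 1.29 for Fasn, higher in library 1. No gene of the 10 was over 2-fold apart in a WT pair, which held for 4.33% of all genes in the TG table and 1.39% in the het table.

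Levels can be compared between genes only per length of transcript. Per kilobase of exon, the WT mean in the TG table was highest for Thrsp (36923 normalised reads per kb), followed by Srebf1 (7920), Pklr (5140), Fasn (4630), Mlxipl (4183), Me1 (3569) and Acly (2848). Acacb (853), Acss2 (527) and Acaca (303) were lowest. The WT libraries of Mlxipl and Me1 overlapped, as did those of Me1 and Acly, and the other neighbours in this order did not. In the het table the same genes took the first and the last places. There Pklr (1957) and Srebf1 (1906) overlapped, as did Fasn (792) and Me1 (683). In TG library 1 the order changed: Fasn (19336) and Acly (18296) came next after Thrsp (49035), and Srebf1 was at 8550. Exon length was taken over all annotated transcripts, which lowers the value for genes with many rare exons.

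The promoters of the 3 genes that differed most between libraries are shown because known sites of SREBP, NF-Y and Sp1 lie in such promoters. The RefSeq table (GRCm38.p6) matched all 10 genes with 15 start sites, and the 250 bases before each were read. Letters searched on both strands were TCACNCCAC (a form of the sterol regulatory element), CACGTG (the E-box), CCAAT (the box read by NF-Y), GGGCGG (the GC box read by Sp1) and a direct repeat read by nuclear receptors (AGGTCA, then 4 bases of any kind, then the same letters again), and capitals mark matches in either direction. The sequences run 5′ to 3′ on the gene's strand, at chr11:100528001-100528250 (− strand) for Acly, chr2:155517793-155518042 (+ strand) for Acss2 and chr11:120824548-120824797 (− strand) for Fasn.
Acly: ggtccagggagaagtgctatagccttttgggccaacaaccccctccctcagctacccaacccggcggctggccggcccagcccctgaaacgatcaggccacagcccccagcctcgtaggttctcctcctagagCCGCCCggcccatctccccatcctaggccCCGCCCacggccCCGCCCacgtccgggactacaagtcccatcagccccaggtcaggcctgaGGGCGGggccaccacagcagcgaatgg
Acss2: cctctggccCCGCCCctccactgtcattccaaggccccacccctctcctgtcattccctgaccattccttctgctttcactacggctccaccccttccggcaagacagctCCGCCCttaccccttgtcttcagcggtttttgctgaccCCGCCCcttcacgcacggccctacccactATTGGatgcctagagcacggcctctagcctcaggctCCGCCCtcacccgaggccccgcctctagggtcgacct
Fasn: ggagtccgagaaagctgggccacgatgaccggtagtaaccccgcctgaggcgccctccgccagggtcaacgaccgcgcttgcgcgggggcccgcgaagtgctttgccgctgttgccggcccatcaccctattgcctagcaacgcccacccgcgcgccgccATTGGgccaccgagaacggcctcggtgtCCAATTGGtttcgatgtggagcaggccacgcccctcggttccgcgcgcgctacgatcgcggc

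Acly had 4 GC boxes and Acss2 had 4 with a CCAAT box. Fasn had 3 CCAAT boxes, the last pair of which overlap as a palindrome at positions −62 and −59 from the gene start. Over the 10 genes, 9 of 15 windows held a CCAAT box, against 33.8% of all 32851 windows in the RefSeq table, and 6 of 15 held a GC box, against 32.7%. The nuclear receptor repeat was found in 0 of the 15 and in 0.0152% of all. The only windows of Acaca (chr11:84195188-84195437) and Acacb (chr5:114165268-114165517) lie inside the gene spans given above. The sequence before the outermost starts of these genes was thus not read.

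The sterol element and the E-box each occurred in a single window of the 15, both at Mlxipl, which has a start site in each of the windows below. The E-box was in the first window (chr5:135089640-135089889) and is found in 6.02% of all windows. The sterol element was in the second (chr5:135106641-135106890), with the letters TCACACCAC, and is found in 1.05% of all windows. Mlxipl is shown as the gene whose RNA was set apart in opposite directions in the mutants. A match describes letters only, and no match says only that these letters are not in the window.
Mlxipl first window: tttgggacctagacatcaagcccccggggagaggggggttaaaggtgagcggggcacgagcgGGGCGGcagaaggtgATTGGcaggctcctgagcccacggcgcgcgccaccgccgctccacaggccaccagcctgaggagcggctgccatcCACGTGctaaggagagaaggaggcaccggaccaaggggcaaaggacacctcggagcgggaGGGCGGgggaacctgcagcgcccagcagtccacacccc
Mlxipl second window: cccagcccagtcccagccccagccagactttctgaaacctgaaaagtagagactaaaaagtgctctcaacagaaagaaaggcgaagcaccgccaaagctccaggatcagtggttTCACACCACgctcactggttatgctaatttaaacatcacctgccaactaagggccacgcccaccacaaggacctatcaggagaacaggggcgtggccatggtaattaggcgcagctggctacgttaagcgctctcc

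Whether the mutants differ from each other was tested as the TG effect minus the het effect in a joint fit of the 8 libraries. None of the 10 genes was called, against 0.434% of all genes, and 1, Mlxipl, was under an unadjusted p of 0.05, against 16.7%. Without TG replicate 2, Mlxipl and Pklr were called, against 5.47% of all genes. Without het replicate 2, 0 of the 10 were called, against 0.0596%, as with DESeq2, against 3.16%. Mlxipl came closest, with a difference of 0.88 on the log2 scale (SE 0.38, 95% interval 0.01 to 1.76, adjusted p = 0.295). Thrsp had −1.19 (SE 0.57, 95% interval −2.56 to 0.17, adjusted p = 0.353). For Acly the interval of the difference was −4.41 to 4.69 and for Fasn −3.99 to 3.86, so these libraries do not show whether the effects on them are alike.

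The genes around the core set were read from lists. Over all genes limma called 1.44% in het and 0% in TG, so a count of 0 in TG says nothing about a list. The calls in het are those of the fit within its table, and a single fit of all 8 libraries called 0 genes there. The list of desaturases and elongases, which shape the palmitate that Fasn makes, had 3 of 12 genes called higher in het. These were Hsd17b12, a reductase of the elongation cycle (1921 and 1937 in WT, 3352 and 3090 in het, log2 fold change 0.74, SE 0.10, adjusted p = 0.0148), the elongase Elovl5 (1.04, SE 0.16, adjusted p = 0.0295) and the desaturase Fads2 (0.74, SE 0.12, adjusted p = 0.0311). Unlike Fasn, each of them was above both WT libraries in both het libraries. The list's median log2 fold change was 0.63 in het and 0.03 in TG. Scd1, the stearoyl-CoA desaturase, split like the lipogenic genes in TG, at 2033370 and 177199 against 1083080 and 842192 in WT. In het it was at 731848 and 404286 against 261789 and 333642 in WT (log2 fold change 0.88, SE 0.30, adjusted p = 0.279). Elovl6, which elongates palmitate, was at 84668 and 5187 in TG beside 22230 and 12056 in WT.

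Genes listed as controlling the factors were not called in either mutant. Of 10 genes listed for SREBP processing and regulation, 0 were called in either table, with medians of 0.28 in TG and 0.04 in het. The smallest p in TG were those of Sirt1, a deacetylase (0.45, adjusted p = 0.525), and Srebf2, the sterol partner of Srebf1 (0.38, adjusted p = 0.526). In het they were those of Ppp1r3b, a glycogen-targeting subunit (0.48, adjusted p = 0.122), and Insig2, which holds the precursor in the endoplasmic reticulum (1.16, SE 0.24, adjusted p = 0.132). Ppp1r3b is on the list but is not a gene of SREBP processing. Insig2 was at 6580 and 6323 in WT beside 3216 and 5730 in TG, and at 2651 and 1635 in WT against 4511 and 4785 in het. It was lower without overlap in TG and higher without overlap in het, and in TG it was lowest in library 1. Of 18 partners such as Mlx, the LXR and RXR receptors and the USF factors, 0 were called, with medians of 0.06 and −0.10. Thrb, a thyroid hormone receptor, had the smallest p in TG (0.47, adjusted p = 0.491) and Usf1 in het (−0.37, adjusted p = 0.17). Of 12 genes that act on acetyl-CoA carboxylase, AMPK subunits among them, 0 were called (medians 0.21 and −0.05). Mid1ip1, the paralog of Thrsp, was at 2816 and 3597 in WT beside 7335 and 2703 in TG, and at 1075 and 982 in WT against 749 and 492 in het. Thrsp was higher than WT in both het libraries and Mid1ip1 lower (log2 fold change −0.76, SE 0.21, adjusted p = 0.212).

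Supply of NADPH and citrate had 0 of 12 genes called in either table, with medians of −0.10 in TG and 0.25 in het. G6pdx, the entry enzyme of the pentose phosphate path, was at 271 and 259 in WT and at 2793 and 292 in TG, a split like that of Acly and Acss2. In het it was at 180 and 123 against 81.9 and 108 in WT. Taldo1, of the same path, had the smallest p in both (−0.30, adjusted p = 0.562 in TG and 0.37, adjusted p = 0.111 in het). Of 18 genes of glucose entry and glycolysis 0 were called, with medians of −0.01 and 0.14. Of 13 other targets of SREBP1c and ChREBP, 1 was called in het, the steroid hydroxylase Cyp17a1 (0.76, SE 0.10, adjusted p = 0.0155), and 0 in TG, with medians of 0.48 in TG and 0.40 in het. Of the other isoforms and acyl-CoA synthetases, 1 of 11 was called in het, Acsl5 (0.70, SE 0.13, adjusted p = 0.0442), and 0 of 12 in TG. Insulin signalling had 0 of 17 called in either, with medians of 0.10 and 0.06. In TG the smallest p there were those of Pik3ca and Rictor (0.31 and 0.39, adjusted p = 0.539 each), and in het those of Mtor (0.38, adjusted p = 0.105) and Foxo1 (0.44, adjusted p = 0.114).

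**Figure D4:**
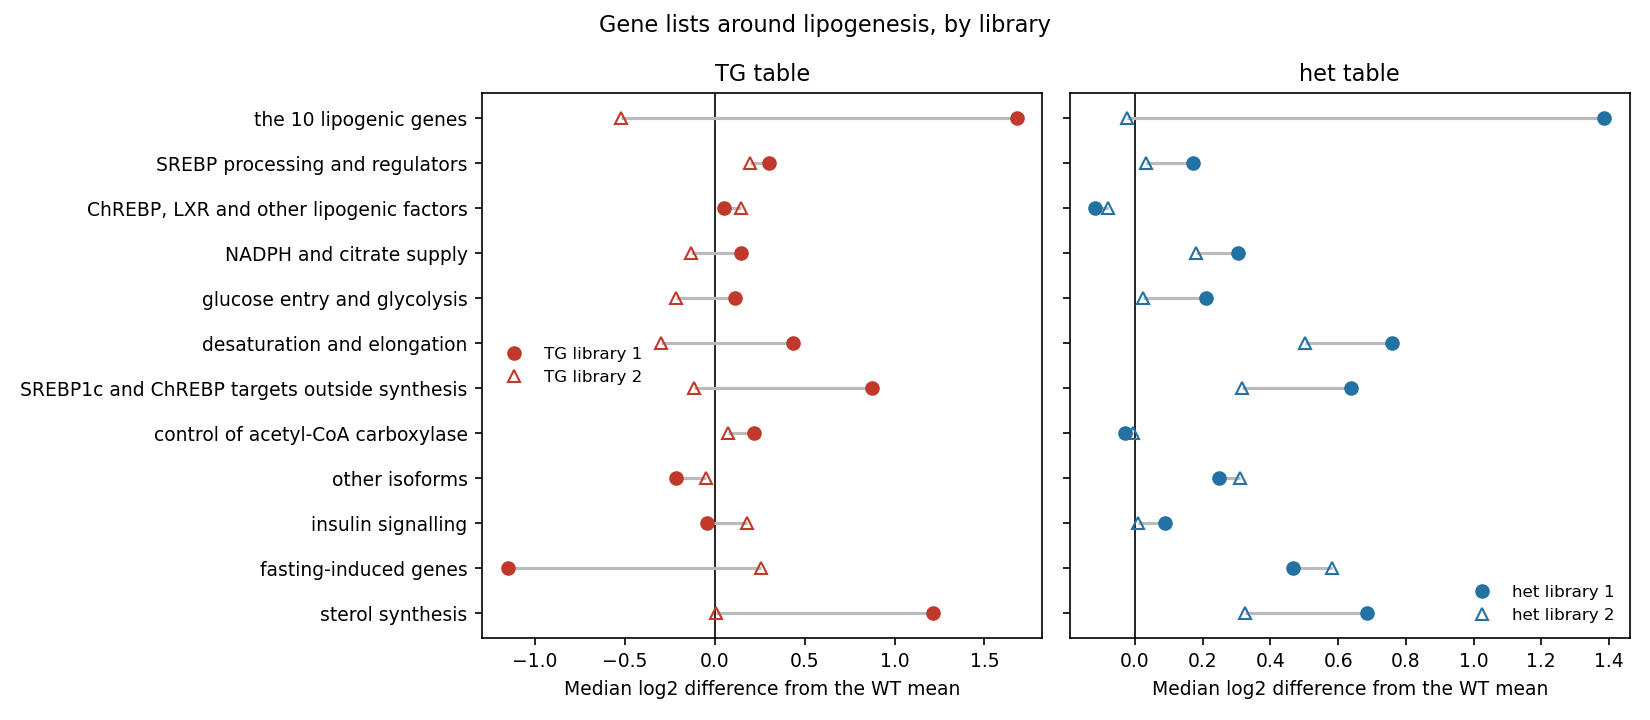
Median log2 difference from the WT mean in each mutant library for the 10 lipogenic genes and 11 lists around them, circles for library 1 and triangles for library 2, TG left and het right (the axes differ). In TG the lipogenic genes (1.68 and −0.52), sterol synthesis (1.21 and 0.01) and fasting-induced genes (−1.15 and 0.26) show the widest gaps between libraries.

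Genes known to rise on fasting lay the other way round between the TG libraries. Of 15 such genes, 13 were lower in TG library 1 than in library 2, and the list's median difference from WT was −1.15 in library 1 and 0.26 in library 2. Pck1, of gluconeogenesis, was at 45345 and 229468 in TG beside 125535 and 161615 in WT. Igfbp1, which insulin represses, was at 2692 and 19169 in TG beside 4373 and 3415 in WT. By log2 fold change, 3 genes of the list lay above WT in TG and 12 below, with a median of −0.48 and 0 called. The 2 of smallest p there, Ppargc1a and Tat, were both higher than WT (limma, unadjusted p under 0.05), and 0 genes were lower at that p. In het the same list had 0 of 15 called and all 15 above WT, with medians of 0.47 in library 1 and 0.58 in library 2. Its genes of smallest p there were Angptl4, an inhibitor of lipoprotein lipase (0.55, adjusted p = 0.0633), and Pck1 (0.98, adjusted p = 0.106). By these medians het library 1 had higher levels of both lists than WT, unlike TG library 1. Between the het libraries, only 4 of the 15 genes were higher in library 1 than in library 2. That is the same direction as between the TG libraries. The labels give no feeding state or time of day, and the part of either in these differences was not tested. Of 21 genes of sterol synthesis, the target set of SREBP2, 20 were higher in library 1 than in library 2 in each mutant. Of the 21, 19 lay above WT in TG and 18 in het, and 1 was called, Hmgcs1 in het (0.80, SE 0.11, adjusted p = 0.0165). The list's median log2 fold change was 0.75 in TG and 0.46 in het, beside 0.58 and 0.74 for the 10 lipogenic genes.

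In bulk liver, fewer cells of a type and less RNA per cell cannot be told apart, and markers of other cells are given for that reason. Fat cells also express the lipogenic genes. Of 11 adipocyte markers 4 were measured in TG and 5 in het. Adipoq, Lep, Retn and Plin1, the defining ones, were not among the measured markers in either table. The summed level of the measured markers was 135952 to 210532 in WT against 85917 to 111744 in TG, and 34192 to 47552 in WT against 39366 to 42354 in het. Nearly all of this sum was Car3, which liver also makes. Gene by gene, 4 of the 5 in het lay above WT, with a median log2 fold change of 0.31, and 0 were called. Fabp4, a fatty acid carrier, came nearest, at 237 and 243 in het with 104 and 150 in WT (0.93, SE 0.18, adjusted p = 0.0511). In TG 1 of 4 lay above WT, Adrb3, the beta-3 adrenergic receptor, at 952 and 343 with 42.0 and 50.5 in WT (3.60, SE 0.52, adjusted p = 0.29). Of the 12 Kupffer cell and macrophage markers, all 12 were lower in TG library 1 than in library 2, with sums of 20584 and 27680 against 31334 to 33582 in WT. In het they summed to 8855 and 12184 against 7486 to 10306, and only 1 of the 12 was higher in library 1 than in library 2. The 12 endothelial markers summed to 18126 and 18470 in TG against 21098 to 22192 in WT, with 0 called, and to 6500 and 6633 in het against 5523 to 5894, with Lyve1 (0.92, adjusted p = 0.0403) and Gpr182 (0.67, adjusted p = 0.0442) called. Stellate cell markers were higher in TG library 1 than in library 2 in 10 of 11 cases, with sums of 21203 and 15484 against 15622 to 16211 in WT. In het their sums were 4433 and 4585 against 4294 to 4767. Lymphocyte markers summed to 697 to 903 in TG against 918 to 982 in WT, and those of bile duct cells to 1473 to 1755 against 1465 to 2400. In het the 4 measured of 10 lymphocyte markers summed to 247 to 265 against 232 to 291. Of 6 pancreas markers 1 was measured, Cela1, at 384 and 1047 in TG with 358 and 449 in WT, and at 123 and 129 in het with 173 and 249 in WT. It was highest in TG library 2. The part of these cells in the lipogenic values was not tested.

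The profiles most like that of the 10 genes were sought over the 8 libraries, as differences from the own WT mean, among 8767 other genes with a mean of at least 100 in each table. The closest 5 were Nsdhl (Pearson's r = 0.986), an enzyme of sterol synthesis, Acat2 (0.984), the cytosolic thiolase that makes acetoacetyl-CoA, Tecr (0.984), the last reductase of fatty acid elongation, Pnpla3 (0.98), a lipase of lipid droplets, and Dcaf17 (0.976), an adaptor of a ubiquitin ligase. Pnpla3 was at 27835 and 796 in TG beside 2614 and 2573 in WT, and at 1100 and 250 in het against 234 and 171. Most opposite were Mup14 (−0.98), a major urinary protein whose reads close paralogs may share, Ece2 (−0.973) and Zmat2 (−0.973). Among the 10 genes, the r of each with the mean of the other 9 was 0.991 for Acly, 0.968 for Acss2, 0.959 for Fasn and 0.955 for Acaca, and lowest for Srebf1 (0.419). These values describe 8 libraries in which TG library 1 lies farthest out, at 1.65 above WT in the mean of the 10 genes, followed by het library 1 at 1.01.

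Me1 is the only gene of the 10 on chromosome 9. In the 5 Mb to either side of it (81581371 to 91695953), 5 genes were higher and 4 lower in TG at an unadjusted p under 0.05 of 30 measured, and 0 were called; over all genes 9.12% were under that p. Zfp949, 1 of these (chromosome 9, 88548020 to 88571061), was at 396 and 284 in WT and at 1010 and 983 in TG (log2 fold change 1.57, SE 0.19, adjusted p = 0.166). Its TG libraries were close together, whereas those of Me1 were 5.29-fold apart. In het 1 of 21 genes of the window was called, Nt5e (0.63, SE 0.11, adjusted p = 0.0375), where 1.44% of all genes were. At an unadjusted p under 0.05, 3 were higher and 2 lower there, which is 23.8% of the window against 14.7% of all genes.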

How the data were processed

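The deposited tables hold a signal per gene and library: the authors scaled each library's gene counts by 1 factor. All values (100%) came out as whole multiples of 1 read, to within 0.001 of a read. Tools listed in the submitters' processing notes, with no role given, are DESeq2, featureCounts and Subread (1.5.2), and the build is mm10 (GRCm38). The annotation and strand setting were not given there. Gene positions and exon lengths came from GENCODE M21 (GRCm38).

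Values were taken to log2(value + 1), and fold changes are on that scale. The test was limma (version 3.58.1, in R 4.3.3; moderated by eBayes with a trend and robust estimates) within each table over all its genes, n = 2 per group, with Benjamini-Hochberg adjustment. The difference between mutants used the 11754 genes in both tables. Alternatives were edgeR 4.0.16, DESeq2 1.42.0 and limma-voom on recovered reads, other pseudocounts, filters and scalings, no robust estimates, a single fit, a replicate block and leaving out each library. The pipeline was tested on simulated data.

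The 10 genes, the lists and the tests were chosen with earlier results of these data known. Genes were named by rule: the 10 genes, Ube3a, up to 3 called genes of each list or otherwise the 2 of smallest p, Scd1, Elovl6 and Mid1ip1, the closest and most opposite profiles, and neighbours of Me1. Not all genes that the rule selects are reported here. Insig2, Pck1 and Igfbp1 in TG and G6pdx in het were named after their values were seen.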

Additional observations from a re-analysis of the deposited data

Results flagged for a closer look

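Mlxipl is flagged because both TG libraries lay above their WT pair and both het libraries below theirs, which also held for 7.23% of the genes in both tables. The difference of the effects was 0.88 (log2), and its test missed the threshold (limma, adjusted p = 0.295). Without TG replicate 1 the TG log2 fold change of Mlxipl went from 0.49 to 0.10 and the difference to 0.49. Among the list genes, 3 had effects that differed between the mutants by the same test, which called 0.434% of all genes. Hsd17b12, of fatty acid elongation, had a difference of −1.04 (adjusted p = 0.0338), lower than WT in TG and higher in het. Adrb3, the beta-3 adrenergic receptor on the adipocyte list, had 4.58 (adjusted p = 0.0442), with TG at 952 and 343 (WT 42.0 and 50.5) and both het libraries below both WT libraries. Gpr182, on the endothelial list, had −1.07 (adjusted p = 0.0457).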

How the results depend on the processing

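Each of the 10 genes kept the sign of its TG and het log2 fold change under every alternative that kept all libraries. Fasn reversed in the difference between mutants, from −0.06 to 0.37 with edgeR and 0.36 with DESeq2. The number of the 10 called was 0 throughout in TG and in the difference, and 1 in het (Acacb) with DESeq2 and with the replicate block. Over all genes, DESeq2 called 186 in TG, 289 in het and 371 for the difference. Limma-voom called 82 in het and 31 for the difference, no robust estimates gave 93 in het, and a single fit of all 8 libraries gave 25 in TG and 0 in het, where 648 genes were higher and 509 lower at an unadjusted p under 0.05. Scaling to the total without the 20 most abundant genes turned the TG split at that p from 710 higher and 546 lower to 438 and 687.

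Leaving out a library moved most values. The count of the 10 called ran from 0 to 3 in TG, 0 to 5 in het and 0 to 2 in the difference. The count over all genes ran from 0 to 146 in TG, 61 to 173 in het and 5 to 643 in the difference. The median of the 10 ran from −0.52 to 1.68 in TG and from −0.025 to 1.39 in het. The TG log2 fold changes ran from −0.26 to 3.28 for Acss2, −0.80 to 2.75 for Acly, −0.52 to 2.26 for Acaca, −0.12 to 1.79 for Acacb, −0.88 to 2.06 for Fasn, −0.44 to 1.57 for Pklr, −0.53 to 0.13 for Srebf1, −1.03 to 1.37 for Me1 and −0.72 to 0.41 for Thrsp. Only Mlxipl kept its sign there (0.10 to 0.88). The het values ran from −0.20 to 1.51 for Fasn, −0.087 to 0.75 for Acaca, −0.22 to 0.034 for Srebf1, −0.26 to 0.37 for Pklr, −0.64 to −0.15 for Mlxipl, 0.037 to 1.63 for Acly, 0.29 to 1.76 for Acss2, 0.64 to 1.43 for Me1, 0.68 to 1.39 for Thrsp and 0.80 to 1.38 for Acacb, and these last 6 kept their sign. The differences ran from −0.85 to 1.93 for Acaca, −1.21 to 0.70 for Acacb, −1.63 to 1.92 for Acly, −1.29 to 2.25 for Acss2, −1.53 to 1.41 for Fasn, −2.07 to 0.34 for Me1, −0.49 to 1.52 for Pklr, −0.44 to 0.22 for Srebf1, 0.49 to 1.28 for Mlxipl and −1.76 to −0.63 for Thrsp. The cause was not tested.

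The labels do not pair the samples by replicate number. Across genes, library 1 minus library 2 of WT and of the mutant correlated at 0.107 in the TG table and −0.0426 in the het table. With the replicate block Acacb in het had adjusted p = 0.028 (limma; 0.0678 without it), and the count over all genes was 0 in TG, 138 in het and 46 for the difference. All 10 genes had many reads in each library, and the width of the intervals comes from the spread between 2 libraries per group.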
